A study of Danio rerio with 9 samples.

Results

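The genes described here encode enzymes that activate fatty acids, build long-chain polyunsaturated fatty acids and assemble triglycerides: the acyl-CoA synthetase gene acsl1b, the desaturase gene fads2, the elongase genes elovl5 and elovl2, the phosphatidate phosphatase gene lpin1 and the acyltransferase gene dgat1a. The 6 genes were chosen by their role, as the rows whose gene name equals a listed symbol, at a time when earlier results of these data were known. Each of them had exactly 1 row in each of the 3 deposited tables, out of 12126 gene names in all. They were measured in zebrafish of the AB strain, as whole embryos pooled by 15 and collected at 96 h after fertilization, by sequencing of polyadenylated RNA. Perfluorobutane sulfonate (PFBS), a short-chain perfluorinated surfactant, was given at 16 µM or at 32 µM and set against a control that received 0.01% DMSO. Each of these 3 groups had 3 samples from separate experiments. All groups were dechorionated by hand at 24 h, per the labels, and the labels do not say whether the PFBS groups carried DMSO as well. Per the labels the dishes were kept at 37 °C, which is warm for this species, and whether that is an entry error is not known.

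Long-chain polyunsaturated fatty acids are made from shorter dietary or yolk precursors by alternating desaturation and elongation. In zebrafish the enzyme encoded by fads2 performs both of the front-end desaturations that mammals divide between separate enzymes, the product of elovl5 elongates the shorter intermediates, and that of elovl2 the longer ones on the way to docosahexaenoic acid, a major lipid of the brain and retina. Triglycerides are made by adding activated fatty acids to a glycerol backbone: acyl-CoA synthetases supply the activated chains, lipins remove the phosphate of phosphatidate to give diacylglycerol, and diacylglycerol acyltransferases add the last chain. In a larva before its first meal these routes draw on lipid from the yolk.

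Of the 6 genes, fads2 and elovl2 were higher at 32 µM PFBS than in the control, with log2 ratios of 0.54 and 0.47 (folds of 1.45 and 1.39) and q = 0.00521 for each in the authors' deposited table. That q-value was the smallest at this dose and was shared by 258 of 26901 rows, so it does not order them. The other 4 genes, acsl1b, lpin1, dgat1a and elovl5, did not pass the test at 32 µM, and none of the 6 passed it at 16 µM or between the doses. The background share of rows called in the authors' deposited table was 1.83% at 32 µM, and 0.959% were called higher. It was 0.260% at 16 µM and 0.329% between the doses. A gene was called where the authors' q-value was under 0.05. The tables give 1 level per group in FPKM (fragments scaled to transcript length and library size), so no level or ratio here has a standard error, the overlap of samples between groups cannot be seen, and sequencing depth is unknown. The authors' q-values are the only measure here that can bear on the spread between samples. The test behind them was not given, so how it treated that spread is not known.

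Every sample is a whole animal pool, so fewer cells of a type and less RNA per cell cannot be told apart. Of 35 markers of liver, intestine, exocrine pancreas, yolk syncytial layer and lipoprotein export, neurons, retina, muscle and skin, 30 had a row in each table and none was at 0 in the first group. In the authors' deposited table for 32 µM, 4 of 4 measured exocrine pancreas markers and 2 of 4 intestine markers were called higher, and 2 of 6 liver markers were called lower. The summed level of the intestine markers was 593 FPKM in the control and 692 FPKM at 32 µM. For the pancreas markers the sums were 629 and 770 FPKM, and for the liver markers 6920 and 5998 FPKM. Each sum weighs most the marker with the highest level: fabp2 for intestine (log2 ratio 0.23), try for pancreas (0.22) and apoa2 for liver (-0.22). Single liver markers ranged from -0.22 to 0.03 in the authors' deposited table. Median log2 ratios were 0.20 for intestine, 0.28 for pancreas and -0.15 for liver. In fish fads2 and elovl2 are known to be transcribed in liver, intestine and brain, among other tissues, and the part of these organ markers in the gene results below was not tested. The 3 neuron markers had log2 ratios between -0.04 and 0.06 at 32 µM in the authors' deposited table, with none called. No marker of the remaining sets was called at this dose. Their medians were -0.14 for yolk syncytial layer and lipoprotein export (2 of 4 markers measured), -0.05 for retina, -0.08 for muscle and -0.08 for skin. At 16 µM no marker was called, and the medians were 0.18 for intestine, 0.15 for pancreas and -0.04 for liver.

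Levels per transcript length can be set side by side between genes. In the control, the highest of the 6 genes was dgat1a at 10.6 FPKM, followed by lpin1 at 10.1 FPKM, fads2 at 9.32 FPKM, elovl2 at 7.46 FPKM, acsl1b at 5.50 FPKM and elovl5 at 2.62 FPKM, as read from the table for 16 µM. The control levels in the table for 32 µM came in the same order, with fads2 at 9.99 FPKM next to lpin1 at 10.1 FPKM. Without values per sample, it cannot be said which neighbours in this order differ beyond their spread. At 16 µM fads2 came first with 11.6 FPKM in the table against the control, ahead of dgat1a at 10.5 FPKM, while in the table of the doses lpin1 at 12.9 FPKM stood ahead of fads2 at 12.6 FPKM. At 32 µM fads2 was first in both tables, with 14.5 FPKM in the table against the control, ahead of dgat1a at 11.8, lpin1 at 11.2, elovl2 at 10.4, acsl1b at 8.57 and elovl5 at 2.73 FPKM. Among the 11685 gene names of that table, fads2 ranked 6082 by level in the control and 4524 at 32 µM, and elovl2 ranked 7266 and 5877. These are genes of middling abundance in the whole larva, and elovl5 ranked 10350 in the control.

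**Figure D1:**
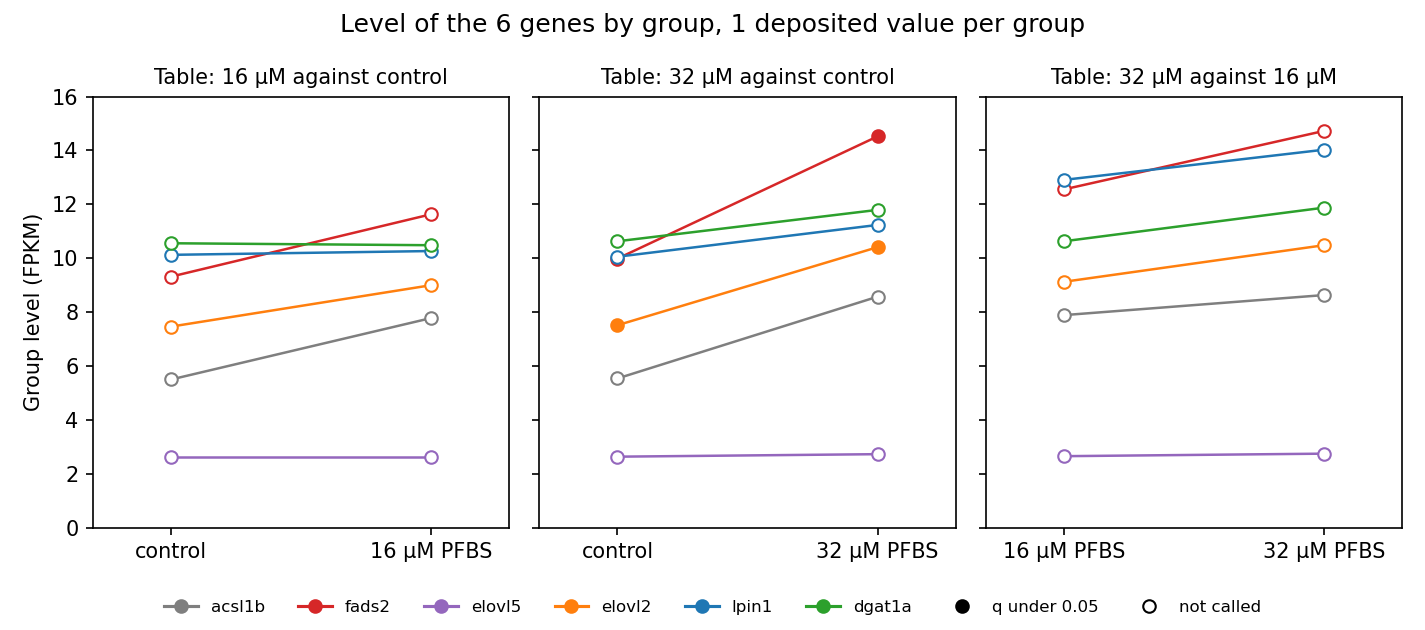
Group level in FPKM (y axis) of the 6 genes in each of the 3 deposited tables, with the groups of each table on the x axis; each point is the 1 deposited value of a group, lines join the groups of a table, and filled points mark genes with q under 0.05. The lines of fads2 and elovl2 are filled in the table for 32 µM, where fads2 goes from 9.99 to 14.5 FPKM, while elovl5 stays between 2.62 and 2.75 FPKM in all tables.

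The desaturase gene fads2 lies on chromosome 25 (4189590 to 4205135 in the table for 32 µM, danRer7), and no other row was listed with the same bounds. Overlap with rows of other bounds was not examined. Its level was 9.32 FPKM in the control and 11.6 FPKM at 16 µM in the authors' deposited table for that pair, a log2 ratio of 0.32 with q = 0.301. In the table for 32 µM the level was 9.99 FPKM in the control and 14.5 FPKM with PFBS, and in the table of the doses it was 12.6 FPKM at 16 µM and 14.7 FPKM at 32 µM. The gene was thus highest at 32 µM in both tables that hold that group. The direct ratio of 32 to 16 µM was 0.23 with q = 0.618 in the authors' deposited table, so the step between the doses did not pass the test. At 16 µM only 145 of 29280 rows had a smaller q than fads2, and the unadjusted p recovered from its q-value was 0.0015. Its ratio at 32 µM ranked 15 from the top among the 8712 gene names with at least 5 FPKM in the control, and at 16 µM it ranked 52 among 8705 in the authors' deposited table. Of 4387 rows whose mean level lay within 0.5 log2 units of that of fads2 at 32 µM, 53 had a ratio as high, itself included, and 10 of these were called.

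The elongase gene elovl2 lies on chromosome 24 (8664120 to 8688060, danRer7), with the same bounds in all 3 tables and no other row listed with them. In the authors' deposited table for 16 µM it had 7.46 FPKM in the control and 9.00 FPKM with PFBS, a log2 ratio of 0.28 with q = 0.998. That q-value was shared by 28857 of the 29280 rows, so it does not order them. In the authors' deposited table for 32 µM the level went from 7.52 FPKM in the control to 10.4 FPKM. Of the 6 genes, elovl2 and fads2 were the 2 called higher. Between the doses the values were 9.13 FPKM at 16 µM and 10.5 FPKM at 32 µM, a log2 ratio of 0.19 with q = 0.999 in the authors' deposited table. The ratio of elovl2 at 32 µM ranked 22 among the 8712 gene names with at least 5 FPKM in the control. Its levels were lower than those of fads2 in every group and table.

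The other elongase gene of the polyunsaturated route, elovl5, lies on chromosome 13 (2174482 to 2203555 in the table for 32 µM, danRer7) and had the lowest level of the 6 genes throughout. Its level was 2.62 FPKM both in the control and at 16 µM, 2.64 FPKM in the control and 2.73 FPKM at 32 µM, and 2.66 and 2.75 FPKM at 16 and 32 µM in the table of the doses. The log2 ratios were 0.00, 0.05 (q = 0.932) and 0.06 in the authors' deposited table of each pair, and none was called. At 32 µM 18870 of 26901 rows had a smaller q than elovl5. The difference between its ratio and that of elovl2 at the same dose was not tested.

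Against the control, the acyl-CoA synthetase gene acsl1b had the largest ratio of the 6 genes at each dose, without passing the test. Its level was 5.50 FPKM in the control and 7.78 FPKM at 16 µM, 5.54 FPKM in the control and 8.57 FPKM at 32 µM, and 7.89 FPKM at 16 µM and 8.63 FPKM at 32 µM. The log2 ratio was 0.50 at 16 µM (q = 0.998), 0.63 at 32 µM (q = 0.135) and 0.13 between the doses (q = 0.999) in the authors' deposited table of each pair. By size of ratio acsl1b ranked 12 among 8705 gene names at 16 µM and 7 among 8712 at 32 µM, above fads2 in both. Of 71 rows at a like level, within 0.5 log2 units, with a ratio as high at 32 µM, 8 were called. The locus listed for acsl1b runs over 771 kb of chromosome 14 (466523 to 1237916, danRer7). In the authors' deposited table for 32 µM the same locus was listed for 13 other rows with 11 other gene names, among them fgf2, hopx and ube2ka. None of these 13 rows was called, their log2 ratios lay between -0.20 and 0.41 in the authors' deposited table, and their median was -0.04. The ratio of acsl1b was above that of every other row at this locus at 32 µM, and how the shared locus bears on its q-value was not tested. None of the other 5 genes shared its locus with another row.

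Of the genes for the last steps of triglyceride assembly, lpin1 lies on chromosome 17 (30501763 to 30529404 in the table for 32 µM, danRer7) and is named lpin1a in the current RefSeq annotation. It had 10.1 FPKM in the control and 10.3 FPKM at 16 µM, then 10.1 FPKM in the control and 11.2 FPKM at 32 µM. The log2 ratio was 0.02 at 16 µM and 0.15 at 32 µM (q = 0.207) in the authors' deposited table of each pair. In the table of the doses lpin1 stood at 12.9 FPKM at 16 µM and 14.0 FPKM at 32 µM, a log2 ratio of 0.12 with q = 0.999 in the authors' deposited table. The level of lpin1 at 32 µM therefore differed by 0.32 log2 units between the tables that hold this group, with identical bounds of the locus, which is more than its ratio to the control. At 16 µM the corresponding difference was 0.33, there with unlike bounds of the locus. The shift was thus alike in both PFBS groups. The direct ratio between the doses, 0.12, lay close to the difference of the ratios to the control, 0.13. The gene dgat1a lies on chromosome 19 (1460553 to 1483826, danRer7), with 10.6 FPKM in the control, 10.5 FPKM at 16 µM and 11.8 FPKM at 32 µM. Its log2 ratios were -0.01 at 16 µM, 0.15 at 32 µM (q = 0.332) and 0.16 between the doses (q = 0.999) in the authors' deposited table of each pair. Levels of dgat1a in the control and at 16 µM lay within 0.02 log2 units of each other in every table.

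**Figure D2:**
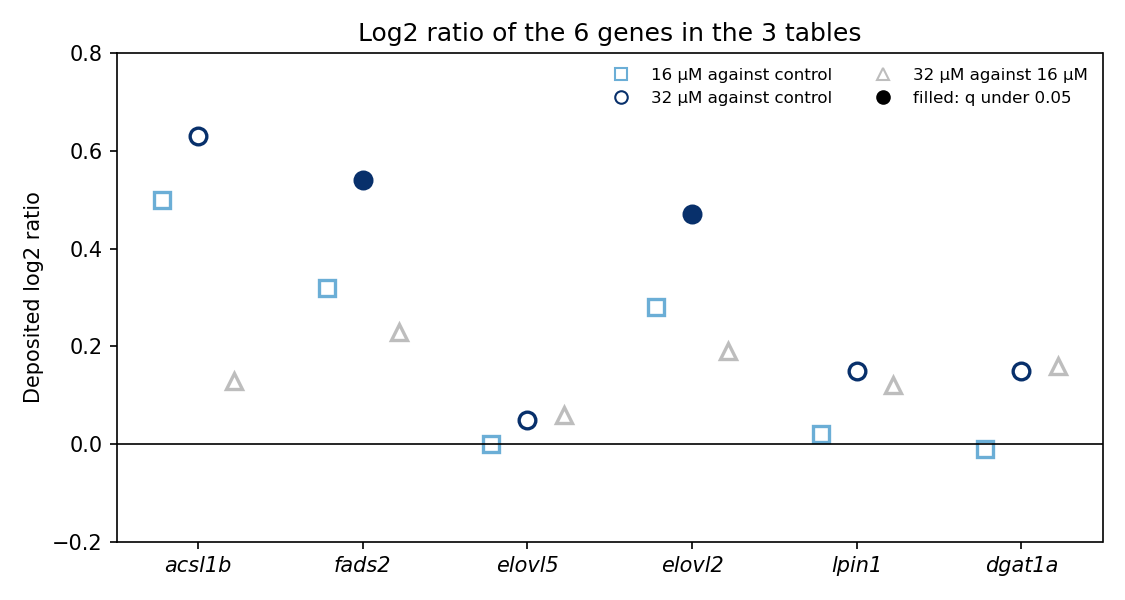
Deposited log2 ratio (y axis) of the 6 genes (x axis) for 16 µM against control (squares), 32 µM against control (circles) and 32 against 16 µM (triangles); filled symbols have q under 0.05. Only the circles of fads2 (0.54) and elovl2 (0.47) are filled, the open circle of acsl1b lies above them at 0.63, and the squares of elovl5, lpin1 and dgat1a lie within 0.02 of 0.

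Set side by side, the ratios against the control had unlike sizes at the lower dose. At 16 µM they were 0.50 for acsl1b, 0.32 for fads2 and 0.28 for elovl2, and 0.02, 0.00 and -0.01 for lpin1, elovl5 and dgat1a in the authors' deposited table, with no gene called. At 32 µM all 6 ratios in the authors' deposited table were positive, with a median of 0.31 beside a median of 0 over all rows at 1 FPKM or more, and 2 genes were called higher. The central 90% of those rows lay between -0.36 and 0.58. Those rows include unnamed loci and levels down to 1 FPKM, so they are not matched to the 6 genes in level. Between the doses all 6 ratios in the authors' deposited table were again positive, from 0.06 to 0.23, with a median of 0.15 and no call. Since the 6 genes were listed with such results known, these medians and counts describe them and are no independent support. The comparisons share their samples in pairs, so the shared direction was not counted as separate support: for each gene the ratio at 16 µM plus the ratio between the doses came within 0.01 of the ratio at 32 µM. Unadjusted p-values recovered from the authors' q-values were under 0.05 for 5 of the 6 genes at 32 µM, namely fads2 and elovl2 (at most 5e-05 each), acsl1b (0.0041), lpin1 (0.0088) and dgat1a (0.023). Over all rows of the authors' deposited table for 32 µM, 3012 of 26901 had such a p under 0.05. At 16 µM and between the doses, fads2 was the 1 gene with a recovered p under 0.05 (0.0015 and 0.0071), and for the genes at the shared highest q no useful p can be recovered.

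**Figure D3:**
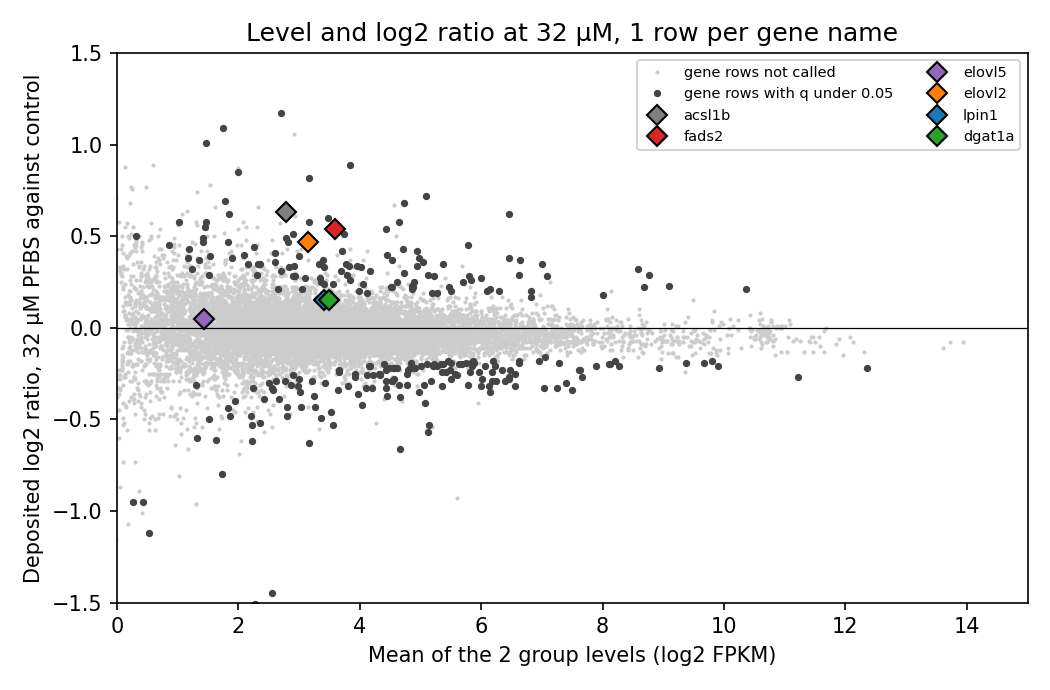
Deposited log2 ratio at 32 µM against control (y axis) by the mean of both group levels in log2 FPKM (x axis), 1 point per gene name; dark points have q under 0.05 and diamonds mark the 6 genes. Of 11685 gene names 11662 are shown and 23 lie outside the axes. The diamonds of fads2, elovl2 and acsl1b lie at ratios of 0.54, 0.47 and 0.63, and those of lpin1 and dgat1a, both at 0.15, lie among rows that were not called.

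The wider pathway was read from 8 lists with 103 genes, of which 70 had a row of their own in the tables for 16 and 32 µM. At 32 µM the only genes of these lists to pass the test were fads2 and elovl2, so none of the 64 measured genes outside the 6 was called. The background share at this dose was 1.83%, at which few calls are due among 64 genes. The lack of calls there therefore does not show that the change was confined to fads2 and elovl2. The same holds for the single lists below, which are smaller. Of those 64 genes, 29 had a positive and 34 a negative log2 ratio, with a median of -0.01 in the authors' deposited table. Recovered unadjusted p-values were under 0.05 for 6 of the 64, beside 3012 of 26901 over all rows. At 16 µM none of 70 and between the doses none of 71 list genes was called by the authors' test, and 2 in each case had a recovered p under 0.05. Over all rows 0.260% and 0.329% were called in these comparisons. Such a p was found for 388 of 29280 rows at 16 µM and for 736 of 29163 between the doses. However, 28857 rows at 16 µM and 28398 between the doses shared 1 q-value, and no useful p can be recovered for them. Counts of p under 0.05 in these comparisons may thus be too low and are not comparable with those at 32 µM.

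Within polyunsaturated fatty acid desaturation and elongation, 2 of 5 genes were called higher at 32 µM and none was called lower, beside 0.959% of all rows called higher. These 2 are fads2 and elovl2 again, chosen with earlier results known, so the count is no further support. All 5 log2 ratios were positive, with a list median of 0.15 in the authors' deposited table. With elovl8a, given below under the other elongases at a negative ratio, they would not all be positive. The members not called besides elovl5 were elovl4a (0.15, q = 0.839) and elovl4b (0.09, q = 0.554), which encode elongases of very long chains. The gene elovl4b had the highest control level of this list, 36.0 FPKM. Of 11 other desaturase and elongase genes listed 8 were measured, none was called and the median was -0.04. Closest to the threshold was elovl7a with a log2 ratio of -0.21 (q = 0.0660), followed by elovl6l with -0.24 (q = 0.105), in the authors' deposited table. A row named zgc:153394, a synonym of elovl8a, whose family is described in fish as elongating polyunsaturated chains although it was listed here with the others, had the lowest ratio of this list, -0.52, with q = 0.147 at a control level of 2.95 FPKM in the authors' deposited table. The more abundant elovl1b (37.5 FPKM) and elovl6 (29.2 FPKM) had ratios of -0.03 and 0.03. Fatty acid elongation also needs a reductase, a dehydratase and a second reductase, shared by all elongases. Of 8 listed genes for these enzymes 6 were measured, and none was called. The gene tecrb, at 91.1 FPKM, had a ratio of -0.03, hacd2 -0.05, hsd17b12b 0.09, hacd3 -0.10 and ptplad2, a synonym of hacd4, 0.29 (q = 0.579) in the authors' deposited table.

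Of 7 listed genes of new fatty acid synthesis and its supply, 4 were measured. Those 4 lay between -0.09 and 0.02 at 32 µM in the authors' deposited table. They were the acetyl-CoA carboxylase gene acaca (-0.05), the ATP citrate lyase gene aclya (0.02), the citrate carrier gene slc25a1a (-0.04) and the malic enzyme gene me1 (-0.09). The fatty acid synthase gene fasn was listed but had no row of its own, so its level was not seen. None of the 7 measured acyl-CoA synthetase genes, of 11 listed, was called. Besides acsl1b their ratios in the authors' deposited table lay between -0.21 for acsl3a (q = 0.560) and 0.08 for acsl3b, and acsl1a, the gene of the same name family, had -0.04 (q = 0.911). Others of this list were acsl4a (-0.14, q = 0.333) and acsbg2 (-0.04) in the authors' deposited table. In glycerolipid and triglyceride synthesis 14 of 21 listed genes were measured and none was called. All 14 had ratios within 0.15 of 0 with a median of 0.02. The highest ratios there were those of lpin1, dgat1a and the monoacylglycerol acyltransferase gene mogat2 (0.15, q = 0.561) in the authors' deposited table. The acyltransferase genes agpat3 (59.7 FPKM in the control), agpat6 and agpat9 had ratios of 0.01, -0.06 and 0.09, and dgat1b and dgat2, which encode other enzymes of the last step, -0.01 and 0.01 in the authors' deposited table.

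Of 17 listed genes of lipid droplets and triglyceride breakdown 8 were measured, and none was called. The lipase genes pnpla2, lipea and lipeb were listed but had no row of their own. At 32 µM fitm2, which encodes a protein of droplet formation, had a ratio of 0.16 (q = 0.440), its muscle relative fitm1 -0.16 (q = 0.507), and the lipolysis inhibitor gene g0s2 0.16 (q = 0.915) in the authors' deposited table. The lipoprotein lipase gene lpl (27.5 FPKM in the control) had -0.02 and the monoglyceride lipase gene mgll 0.01. Of 23 listed transcriptional regulators and their processing factors 18 were measured, and none was called, with a median of -0.01. The gene srebf1, which encodes the sterol regulatory element binding protein known in mammals to activate desaturase and elongase genes, had a log2 ratio of -0.07 at 16 µM, 0.18 at 32 µM (q = 0.371) and 0.03 between the doses in the authors' deposited table of each pair. Its control level was 0.44 on the log2 FPKM scale in the table for 16 µM and 1.36 in that for 32 µM, with unlike bounds of the locus. Its relative srebf2 had -0.04, the feedback inhibitor insig1 0.14 (q = 0.494), pparg -0.14 (q = 0.869), cebpa -0.06 and the protease gene mbtps1 -0.02 at 32 µM in the authors' deposited table.

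**Figure D4:**
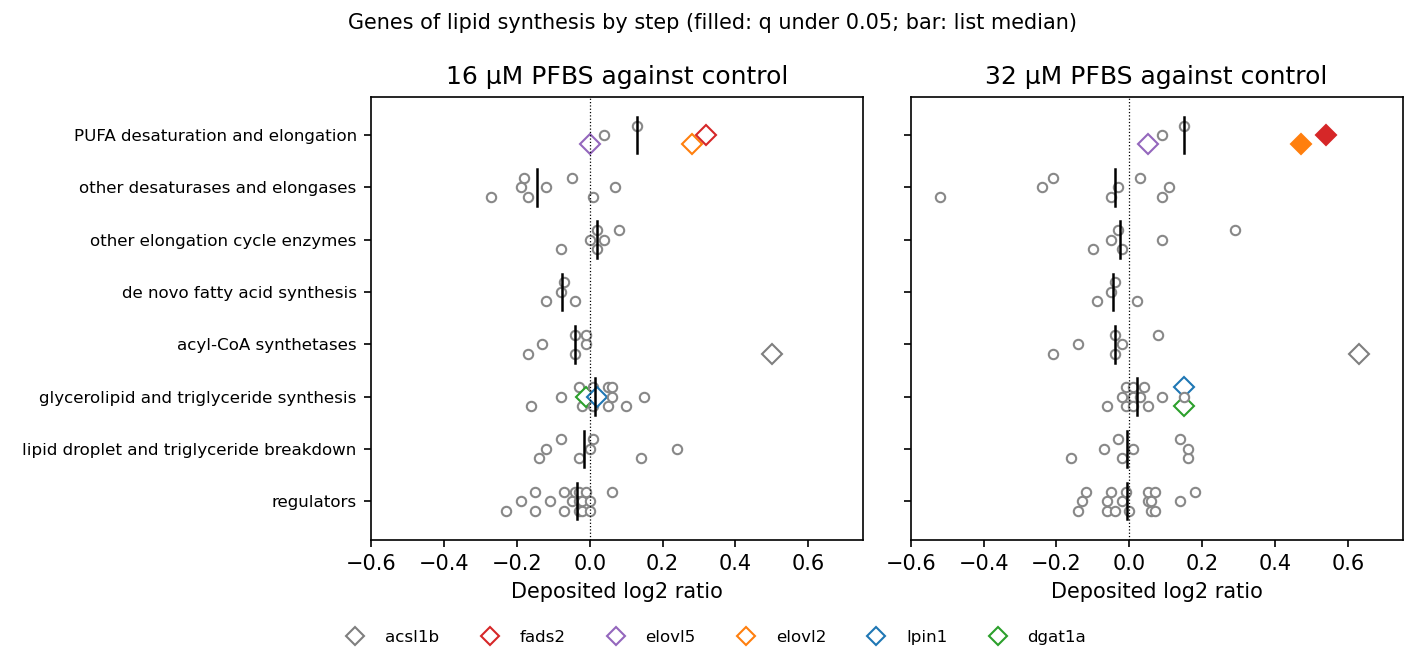
Deposited log2 ratio (x axis) at 16 µM (left) and 32 µM (right) for the measured genes of 8 lists (y axis; PUFA, polyunsaturated fatty acid); circles are genes, coloured diamonds the 6 genes, filled symbols q under 0.05 and vertical bars the list medians. At 32 µM the filled symbols are fads2 and elovl2 alone, and the 14 genes of glycerolipid and triglyceride synthesis lie within 0.15 of 0.

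The genes whose pair of ratios (16 and 32 µM against the control) lay nearest to those of fads2 and elovl2 were sought by Euclidean distance over these 2 values. The search covered 8002 gene names with at least 5 FPKM in the control of the 32 µM comparison and a row at 16 µM. Names starting with LOC, zgc:, si: or im: were left out, so nearer genes may exist among them. Nearest to fads2 was the cytochrome P450 gene cyp3a65, a distance of 0.040 away, with 0.36 and 0.54 in the authors' deposited tables. The next were jdp2b, which encodes a transcription factor, with 0.34 and 0.60, and the amine oxidase gene aoc1, with 0.38 and 0.49. Nearest to elovl2 was plac8.1 with 0.29 and 0.45 in the authors' deposited tables, then fads2 itself at a distance of 0.081, then the cytochrome P450 gene cyp2n13 with 0.31 and 0.39. Each of these genes was called higher at 32 µM (q = 0.00521), and of the 5 besides fads2 only cyp3a65 was called at 16 µM in the authors' deposited table (q = 0.0219). The shared q of 0.00521 is the smallest at 32 µM, held by 258 rows, and is no sign of likeness between these genes. Both ratios rest on the same control samples. Among the 8002 gene names searched, 6 lay within 0.1 of fads2 and 3 within 0.1 of elovl2.

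Around the 6 loci, rows within 100 kb were examined at 32 µM. Of 9 rows near fads2, 1 was called: the cryptochrome gene cry3, which lies 81.0 kb beyond the end of fads2 and was lower, with a log2 ratio of -0.34 (q = 0.0492; 6.73 to 5.28 FPKM) in the authors' deposited table. No row within 100 kb of elovl2, elovl5, acsl1b, lpin1 or dgat1a was called. Of the 14 rows near acsl1b, 13 were those listed with its own locus. Over all rows 1.83% were called at this dose, at which few calls are due among so few rows. The single call and the lack of others are therefore no result about these loci. The 6 genes lie on 6 chromosomes, so that no pair of them are neighbours.

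**Figure D5:**
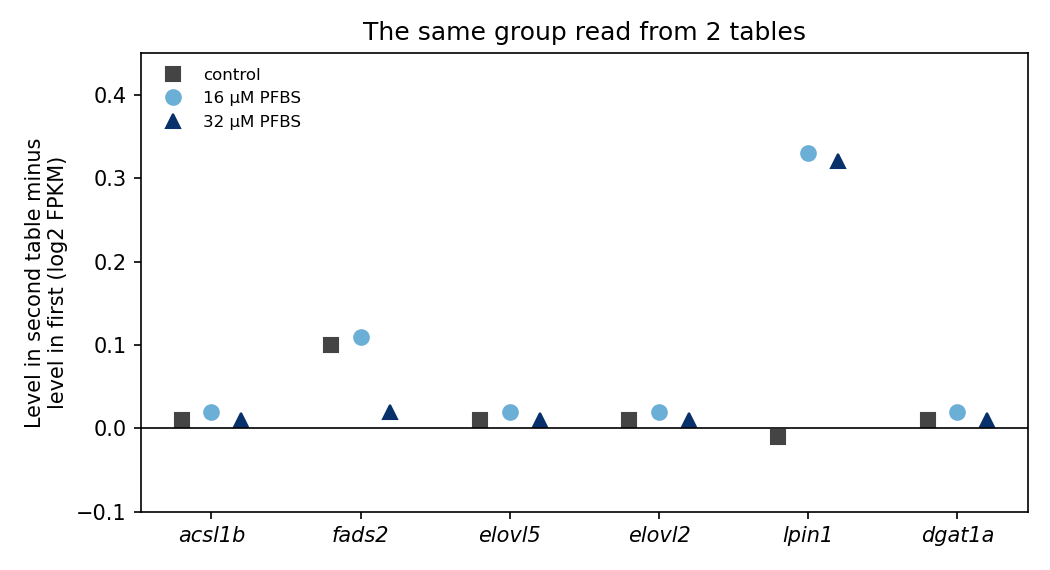
Difference in level (y axis, log2 FPKM) of the same group between the tables that hold it, for the 6 genes (x axis) and the 3 groups (symbols). The points of acsl1b, elovl2, elovl5 and dgat1a lie within 0.02 of 0, fads2 differs by 0.10 and 0.11 in the control and at 16 µM, and lpin1 by 0.33 and 0.32 at 16 and 32 µM.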

How the data were processed

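Whole zebrafish pools (9 samples, 3 per group) were sequenced as stranded polyA libraries, per the labels. Per the file headers, the authors' deposited tables hold, for a pair of groups, each group's log2 FPKM, a log2 ratio and a q-value; the submitters' processing notes name Cufflinks and danRer7. The aligner, versions, annotation and test were not given in the sources used here. Checked over the rows, the log2 ratio is the level of the later-named group less that of the other, to 0.01 where neither level is 0 FPKM, and the authors called exactly those rows whose q-value was below 0.05.

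The tables were read with Python 3.11.15 and pandas 2.3.3. Levels were converted to FPKM. Unadjusted p-values were recovered by undoing a Benjamini-Hochberg adjustment over all rows (upper bounds where q-values tie). That the authors used this adjustment was assumed. On simulated p-values adjusted in the same way the step returned the untied ones, which does not bear on that assumption. Where a list gene had several rows, the one with the highest mean level was used; older names were matched through RefSeq synonyms (GRCz12tu, names alone). No test of significance was computed here, since the tables give no values per sample. The labels number no replicates.

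The members and lists were chosen with earlier results of these data known. Named list genes were those called in any table, up to 3 others with the largest ratio at 32 µM and up to 3 with the highest control level. Alternatives were other q thresholds, FPKM floors, pseudocounts, centring, pooled rows and shared loci. Sequences were not used here.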

Additional observations from a re-analysis of the deposited data

How the results depend on the processing

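The 18 ratios of the 6 genes shifted by at most 0.08 log2 units under pseudocounts of 1 and 0.1 FPKM, centring on the median ratio, the row with the smallest q and, between the doses, the difference of the ratios against control. Their direction was not put to a test by these settings: a pseudocount cannot turn a ratio, the median ratio was 0 and each gene had 1 row. The difference of the ratios against control had the sign of the direct ratio for all 6 genes, but rests on the same samples. The ratio of elovl5 at 16 µM was 0.00 throughout and has no direction. The q-values are the authors' and were not recomputed. At 32 µM fads2 and elovl2 were called at q-value thresholds of 0.01, 0.05 and 0.1, and no other gene of the 6 or of the 8 lists was added or lost, except that elovl7a (q = 0.0660) is added at 0.1. Floors of 1 and 5 FPKM, rows pooling several names and leaving out rows with a shared locus, the last chosen after seeing the data, gave the same counts of called genes in each comparison. The floors and the shared locus setting only remove rows, so they could change these counts only by removing a called gene, and they removed neither. The called genes, fads2 and elovl2, had 9.99 and 7.52 FPKM in the control at 32 µM and no shared locus. None of the pooled rows was called. Leaving out single samples was not run, because the tables hold 1 value per group. No paired analysis was possible because the tables hold no values per sample and the labels number no replicates. The level of a group differed between tables by a median of 0.01 to 0.02 log2 units, and by more than 0.3 for 2.26% to 2.60% of gene names, lpin1 among them in the PFBS groups. The depth of each sample is unknown, so no limit of detection can be given.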

Other observations

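The level of srebf1 differed more between tables than that of any of the 6 genes. At 16 µM PFBS it was 0.37 on the log2 FPKM scale in the table against the control and 2.78 in the table of the doses, a difference of 2.41. The locus listed for srebf1 on chromosome 3 began at 62721992 in the table for 16 µM, at 62719332 in that for 32 µM and at 62716138 in the table of the doses (danRer7), and ended at 62749004 in all of them. For fads2 the listed start also differed, 4189904 in the table for 16 µM and 4189590 in that for 32 µM, with control levels of 3.22 and 3.32. Among 5824 gene names with identical bounds in both tables that hold 32 µM, 58 differed in level by more than 0.3 log2 units. The part of the locus bounds in these differences was not tested.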
